A study of Saccharomyces cerevisiae with 2 samples.

Results

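The 70 reading frames described here carry a systematic yeast name that ends in a hyphen and a letter, such as YCR024C-B. They were taken by that form of the identifier from the 4685 genes of the deposited table. Of the 92 listed identifiers of this form, 22 were left out by name, among them subunits of well-studied complexes, and no measured value entered the rule. The annotation holds 383 protein-coding identifiers of the same form, and the 291 outside the table are not analysed here.

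In yeast nomenclature the number in a systematic name counts open reading frames outward from the centromere, and W and C give the coding strand. A frame recognised after the numbers had been given out takes the number of a neighbour and a letter. Most such frames are short, and many encode small subunits of larger complexes or small membrane proteins.

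The study measured RNA and ribosome footprints in Saccharomyces cerevisiae BY4741, a haploid laboratory strain, in mid-log growth in YPD, a rich glucose medium. Footprints, the mRNA fragments that ribosomes protect from nuclease, made up 1 library. Cytoplasmically enriched RNA, cleared of ribosomal RNA and broken by alkaline hydrolysis, made up the other library. Values are RPKM, read numbers that the authors scaled to gene length and to the size of the library. With 1 library per assay no value has a replicate error, and the depth of both libraries is unknown, so no test between frames is possible and differences are given as sizes.

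Ribosome density is the log2 ratio of footprint RPKM to RNA RPKM, set to 0 at the median of the 4642 genes whose mean of both values was at least 5 RPKM. All 70 frames passed that limit. A density of 1 is 2 times the footprint to RNA ratio of the median gene, which was 0.821, and a frame is called high or low when it lies more than 2-fold above or below that gene.

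The coding sequences of 7 frames are printed from the R64 genome of RefSeq, the assembly that the build name sacCer3 in the submitters' processing notes refers to. They are the frame of lowest density, the 3 of highest density, the 2 most abundant frames and MCO6, a short frame that was low for its length. Capitals mark codons that are the most used for their amino acid in the 55 listed genes annotated as cytosolic ribosomal proteins, and start, stop, methionine and tryptophan codons are in lower case. The frames lie at chrIII:162599-162865 (minus strand), chrX:181551-181709 (minus), chrXVI:645950-646153 (plus), chrXIII:511315-511569 (plus), chrX:159623-159847 (minus), chrIV:1489598-1489798 (minus) and chrV:122798-122929 (minus), in the same order as the lines.
YCR024C-B: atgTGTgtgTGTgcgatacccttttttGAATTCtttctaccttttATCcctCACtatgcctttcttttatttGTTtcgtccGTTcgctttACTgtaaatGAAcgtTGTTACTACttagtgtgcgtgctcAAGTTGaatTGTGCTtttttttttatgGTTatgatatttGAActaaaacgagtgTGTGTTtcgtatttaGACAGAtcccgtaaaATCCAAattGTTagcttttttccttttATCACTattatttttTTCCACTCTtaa
MCO6: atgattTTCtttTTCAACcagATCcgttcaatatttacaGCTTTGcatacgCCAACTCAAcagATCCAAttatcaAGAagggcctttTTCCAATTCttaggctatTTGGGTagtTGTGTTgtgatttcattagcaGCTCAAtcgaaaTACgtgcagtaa
SPO24: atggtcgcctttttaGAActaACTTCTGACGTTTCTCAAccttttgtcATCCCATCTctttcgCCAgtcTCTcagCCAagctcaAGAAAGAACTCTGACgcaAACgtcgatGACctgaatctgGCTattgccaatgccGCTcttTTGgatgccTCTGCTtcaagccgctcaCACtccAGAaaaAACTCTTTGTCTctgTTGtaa
NCW1: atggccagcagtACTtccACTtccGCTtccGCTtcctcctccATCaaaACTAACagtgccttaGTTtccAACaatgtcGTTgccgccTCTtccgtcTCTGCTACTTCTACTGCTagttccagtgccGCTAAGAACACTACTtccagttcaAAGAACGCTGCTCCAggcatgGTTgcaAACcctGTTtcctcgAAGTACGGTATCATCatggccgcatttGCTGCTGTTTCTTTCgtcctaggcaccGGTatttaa
DPI8: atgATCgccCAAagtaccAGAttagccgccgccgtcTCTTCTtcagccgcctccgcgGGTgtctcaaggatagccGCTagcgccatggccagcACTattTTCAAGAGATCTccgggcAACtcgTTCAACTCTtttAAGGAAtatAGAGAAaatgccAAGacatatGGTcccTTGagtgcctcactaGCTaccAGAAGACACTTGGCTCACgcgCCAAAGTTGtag
YDR524C-B: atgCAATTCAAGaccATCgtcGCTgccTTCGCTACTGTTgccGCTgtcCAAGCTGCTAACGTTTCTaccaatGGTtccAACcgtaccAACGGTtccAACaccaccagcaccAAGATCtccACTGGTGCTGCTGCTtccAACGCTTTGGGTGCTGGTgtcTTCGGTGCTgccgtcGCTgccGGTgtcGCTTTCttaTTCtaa
PMP2: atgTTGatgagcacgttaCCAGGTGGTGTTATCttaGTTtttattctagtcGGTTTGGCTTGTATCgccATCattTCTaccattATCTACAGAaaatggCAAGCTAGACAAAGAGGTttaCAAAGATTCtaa

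Most of the frames had more footprints per RNA than the median gene. The median over the frames was 0.86, which is 1.82 times the median gene, with a middle range of 0.48 to 1.15. In all, 62 of 70 lay above the median gene. High density was called for 26 frames (37.1%), against 6.79% of all analysed genes, and low density for 3 frames (4.29%), against 13.1%. All analysed genes are mostly longer, and at like length the frames were not more often high. Under 300 nt 46.8% of 47 frames and 58.8% of 68 other genes were high. From 300 to 599 nt it was 21.4% of 14 frames and 24.8% of 496 other genes. The remaining 41 frames were within 2-fold of the median gene. Per the file headers only genes with some footprints were listed, so frames with RNA alone are in none of these counts. Among genes with a mean of at least 20 RPKM, centred on their own median, 16 of 68 frames were high, against 4.56% of 3731 genes. With centring on total footprints over total RNA, 12 frames were high, against 1.66% of all analysed genes.

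Footprint values of the 70 frames ran from 0.47 to 6746 RPKM with a median of 143, against a median of 39.4 RPKM over all analysed genes. RNA values ran from 13.6 to 2901 RPKM with a median of 99.3, against 49.6 RPKM over all analysed genes. Per the file headers the authors listed genes with at least 10 RPM of RNA, which is 37.5 RPKM at the median length of the frames and 7.65 RPKM at that of all analysed genes, so these RPKM medians are not on an equal footing. By RPKM times coding length the frames, 1.49% of the listed genes, took 0.827% of the listed footprints and 0.516% of the listed RNA. Between log2 footprint and log2 RNA the Pearson r over frames was 0.68 and the Spearman rho 0.85 (n = 70), which describes frames of the same pair of libraries. Without YCR024C-B and YCL021W-A the values were 0.95 and 0.92 (n = 68).

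**Figure D1:**
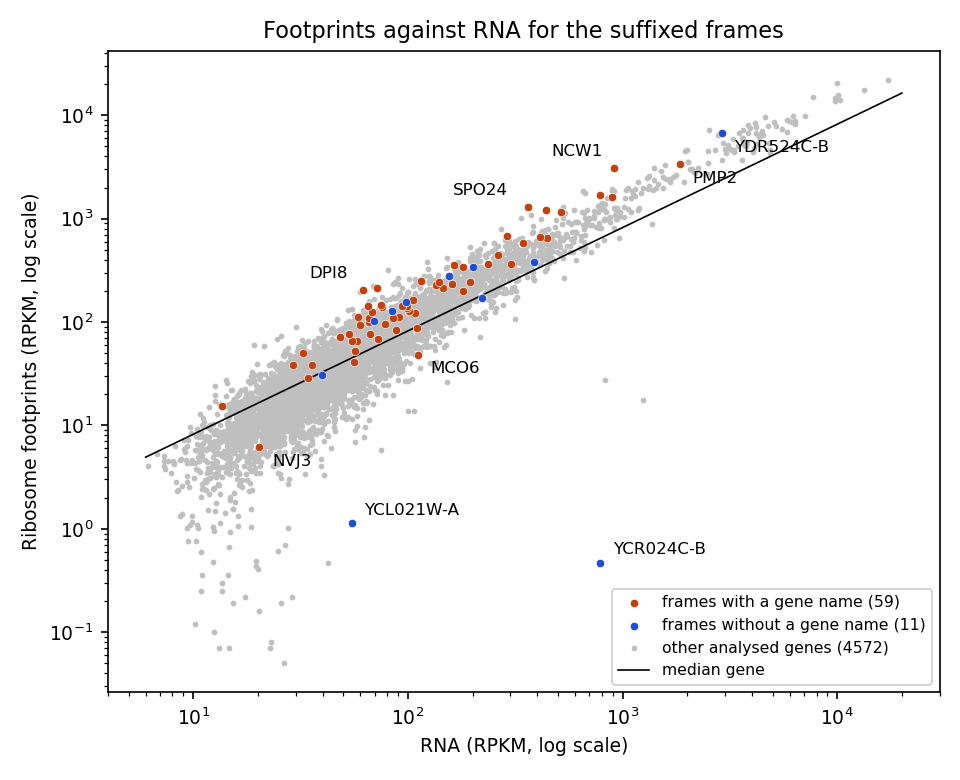
Footprints (vertical, RPKM, log scale) against RNA (horizontal, RPKM, log scale), 1 point per gene, with frames in colour, other genes in grey and a line at the ratio of the median gene. Most frames lie above the line, while YCR024C-B, with 0.47 RPKM of footprints and 786 RPKM of RNA, and YCL021W-A, with 1.13 and 54.6 RPKM, lie far below it.

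The subunits and assembly factors of the respiratory chain and the ATP synthase all lay above the median gene. The 7 listed frames of this list, out of 12 on it, had a median density of 1.01, and 4 were called high. All 7 are 180 to 330 nt long. Under 300 nt, 67 of 68 other genes lay above the median gene and 58.8% were high. On the length-adjusted scale, described below, the list median was 0.06, with no frame more than 2-fold off. With the narrower running window, also described below, the middle frame was MCO10 at -0.08, so the list median changed sign. TIM11, which encodes subunit e of the ATP synthase and helps the enzyme form dimers, had 212 RPKM of footprints and 72.1 RPKM of RNA, a density of 1.84. ATP19, subunit k of the same enzyme, had 358 RPKM of footprints and 164 RPKM of RNA (1.41). These were the highest of the list, and their RNA differed by more than 2-fold.
ATP18, subunit i, had 448 RPKM of footprints and 263 RPKM of RNA (1.05). MCO10, annotated as subunit l, had 77.1 RPKM of footprints and 53 RPKM of RNA (0.83). Of the ATP synthase subunits in the list, MCO10 thus had the least of both readouts. The assembly factors of cytochrome c oxidase, COA6 (1.01) and COA3 (0.905), had 109 and 162 RPKM of footprints. CMC2, a protein of the intermembrane space that acts in assembly of the chain, had the lowest density of the list at 0.597, with 113 RPKM of footprints and 90.6 RPKM of RNA.

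The 4 frames for other mitochondrial proteins spread more widely, with 1 called high. All 4 are under 300 nt, where 58.8% of other genes were high. On the length-adjusted scale the list median was -0.08, with no frame more than 2-fold off. RTC6, a protein of the large mitochondrial ribosomal subunit, had 145 RPKM of footprints and 74.9 RPKM of RNA (1.24). ISD11, which activates the cysteine desulfurase of iron-sulfur cluster synthesis, had 213 RPKM of footprints and 146 RPKM of RNA (0.83). Their densities lay on either side of the 2-fold limit. MDM35, a partner of phospholipid transfer proteins in the intermembrane space, had 143 RPKM of footprints and 99.1 RPKM of RNA (0.82). MIM2, an import factor of the outer membrane, was below the median gene at -0.05, with 87.5 RPKM of footprints and 110.3 RPKM of RNA. It was the member with the smallest codon adaptation of all 70 frames, 0.0894 on a scale that ends at 1.

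Another 9 mitochondrial frames were on no list and ranged from -0.91 to 1.53. RIM1, the mitochondrial single-stranded DNA-binding protein, had 686 RPKM of footprints and 290.0 RPKM of RNA (1.53). STF1, which stabilises the inhibitor of the ATP synthase, had 143 RPKM of footprints and 65 RPKM of RNA (1.42). The crista organiser MIC10 (1.21) and MRA1 (1.19), annotated as a negative regulator of respiratory complex assembly, were high as well. The others were the putative mitochondrial proteins CMI7 (0.62) and DPC13 (0.53), BOL1, which acts in iron-sulfur cluster synthesis (0.47), and COI1, an assembly factor (0.39), all above the median gene.
MCO6, a protein of the mitochondrial outer membrane, had 48.4 RPKM of footprints and 111 RPKM of RNA, a density of -0.91. Of the 70 frames YCR024C-B, YCL021W-A and NVJ3 were lower, and its coding sequence, printed above, is 159 nt long.

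Small proteins of the secretory pathway and membranes formed the most even list. All 9 listed frames, out of 12, lay between 0.82 and 1.41, with a median of 1.06, and 6 were called high. Of the 9 frames 8 are under 300 nt, where 58.8% of other genes were high. On the length-adjusted scale the list median was 0.15, with no frame more than 2-fold off. With the narrower running window the middle frame was PMP2 at -0.03, so the list median changed sign. As measured, the SD over the frames of the list was 0.18. Among all 70 frames the SD was 1.64, and it was 0.62 without the 2 lowest. KSH1, an essential protein of early secretion, had 252 RPKM of footprints and 116 RPKM of RNA (1.41). DID2, which acts with the ESCRT-III complex, had 125 RPKM of footprints and 68.2 RPKM of RNA (1.16). TSC3, an activator of sphingolipid synthesis, had 243 RPKM of footprints and 139 RPKM of RNA (1.09).
The densities within the list stayed close although RNA values spanned 68.2 to 1841 RPKM. OST5, a subunit of the oligosaccharyltransferase, had a density of 1.06 with 231 RPKM of footprints. YSY6, which resembles the mammalian RAMP4 protein, had 1.03 with 576 RPKM. VMA9, subunit e of the vacuolar proton pump, had 0.99 with 671 RPKM. These 3 densities differed little beside the range of all frames. SBH2, a subunit of the Ssh1 translocon of the endoplasmic reticulum, had 652 RPKM of footprints and 444 RPKM of RNA (0.84), and YOS1, needed for transport to the Golgi, had 232 RPKM of footprints and 161 RPKM of RNA (0.82).

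PMP2, a proteolipid that binds the plasma membrane proton pump, was the most abundant frame of that list, with 3359.6 RPKM of footprints and 1841 RPKM of RNA (1.15). It has a close copy, PMP1, which is 1 of the 22 suffixed identifiers left out by the rule and had 4581 RPKM of footprints and 2004 RPKM of RNA (density 1.48). Lined up from their stop codons, the last 123 bases of PMP2 and the whole PMP1 frame (chrIII:162945-163067, minus strand) differ at 12 bases, shown in capitals, and share a run of 40 identical bases.
PMP2: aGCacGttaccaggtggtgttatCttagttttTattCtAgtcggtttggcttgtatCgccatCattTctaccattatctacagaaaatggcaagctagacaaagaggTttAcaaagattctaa
PMP1: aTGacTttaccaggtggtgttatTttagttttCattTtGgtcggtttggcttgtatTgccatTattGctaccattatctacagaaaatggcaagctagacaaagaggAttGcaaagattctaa
The sources used here do not say how reads that match both genes were counted, so both values are uncertain to that extent. Weaker likeness to another coding sequence was found for ERP1, SOL2, SBH2, LSB3, HOR7, YDR524C-B and YCR087C-A, at 74.1% to 90.0% identity over aligned stretches of 37 to 817 bases.

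Other frames that the annotation links to the endoplasmic reticulum, Golgi or vacuole, on no list, included both a very high and a low member. NCW1, whose protein the annotation places in the cytoplasm and endoplasmic reticulum, had 3084 RPKM of footprints and 913 RPKM of RNA, a density of 2.04, the 3rd highest of the 4642 genes. SPC1, a subunit of the signal peptidase, had 113 RPKM of footprints and 58.3 RPKM of RNA (1.23). EGO2 of the vacuolar EGO complex (0.91), SCS22, a homologue of the VAP contact-site proteins (0.69), the p24 family member ERP1 (0.55) and the Golgi SNARE SFT1 (0.22) were between the median gene and 2-fold above it.
NVJ3, annotated with a possible role in tethering the endoplasmic reticulum to the vacuole, had 6.14 RPKM of footprints and 20.3 RPKM of RNA, a density of -1.44. At 1392 nt it is the longest of the 70 frames, and it was the only frame with a gene name called low.

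Frames that act in the nucleus, on RNA or in translation ranged from below the median gene to the 21st highest density of all analysed genes. The 8 listed frames, out of 16 on the list, had a median of 0.82, and 2 were called high. All 8 are under 300 nt, where 58.8% of other genes were high. On the length-adjusted scale the list median was -0.10, with 1 frame, MHF1, more than 2-fold below. TMA7, which associates with ribosomes, had 1221 RPKM of footprints and 442 RPKM of RNA (1.75). NOP10, a core protein of the H/ACA particles that guide pseudouridylation, had 1149 RPKM of footprints and 518 RPKM of RNA (1.43). These were also the most abundant of the list.
The middle of the list held HTL1 of the RSC chromatin remodeller (0.95), KTI11, which acts in diphthamide synthesis (0.91), PCC1 of the KEOPS complex (0.73), SUS1 of SAGA and TREX-2 (0.66) and the ubiquitin-like HUB1 (0.58). Their footprint values ran from 94.4 RPKM for HTL1 to 144 RPKM for KTI11. MHF1, a histone-fold protein, was the lowest at -0.16, with 41.1 RPKM of footprints and 56 RPKM of RNA.

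Frames for chromosome and rRNA functions on no list all had less RNA than the median of the 70 frames. EFG1, a factor of 18S rRNA maturation, had 71.5 RPKM of footprints and 48.3 RPKM of RNA (0.85). MTW1, an essential kinetochore protein, had 15.5 RPKM of footprints and 13.6 RPKM of RNA (0.48), the least RNA of the 70 frames. WIP1, another kinetochore protein, had 52.7 RPKM of footprints and 56.8 RPKM of RNA (0.18). All 3 were within 2-fold of the median gene, above it. EST3, a telomerase subunit made through a programmed ribosomal frameshift, had 28.5 RPKM of footprints and 34.2 RPKM of RNA (0.02).
The frames for actin and polarity proteins were MOB2, the activator of the Cbk1 kinase (0.91), BIL1, which binds Bud6 (0.48), and LSB3, an SH3 protein (0.43). The last group on no list was MBF1, a bridging factor of transcription and translation stress responses, with 1623 RPKM of footprints and 888 RPKM of RNA (1.15), TMA20, a factor of ribosome recycling (0.91), IGO2, an inhibitor of protein phosphatase 2A (0.62), SOL2, which resembles 6-phosphogluconolactonases (0.499), and MAK31, a subunit of the NatC acetyltransferase (0.202). MBF1 was the only member called high among these last 2 groups.

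The list drawn up as stress-induced small proteins had the highest median, 1.996, and all 3 listed members, out of 5, were called high. All 3 are under 300 nt, where 58.8% of other genes were high. SPO24 had 1296 RPKM of footprints and 363 RPKM of RNA, a density of 2.12, the 2nd highest of the 4642 genes. DPI8 had 203 RPKM of footprints and 62 RPKM of RNA (1.996), the 4th highest. HOR7, a small protein known for its induction by high osmolarity, had 1677 RPKM of footprints and 783 RPKM of RNA (1.38). RNA of the members spanned 62.05 to 783 RPKM, so the high densities were found at both moderate and high RNA. The annotation describes SPO24 as a sporulation protein and places the DPI8 protein in mitochondria. The name of the list therefore matches the annotation of HOR7 but not that of SPO24 and DPI8.

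**Figure D2:**
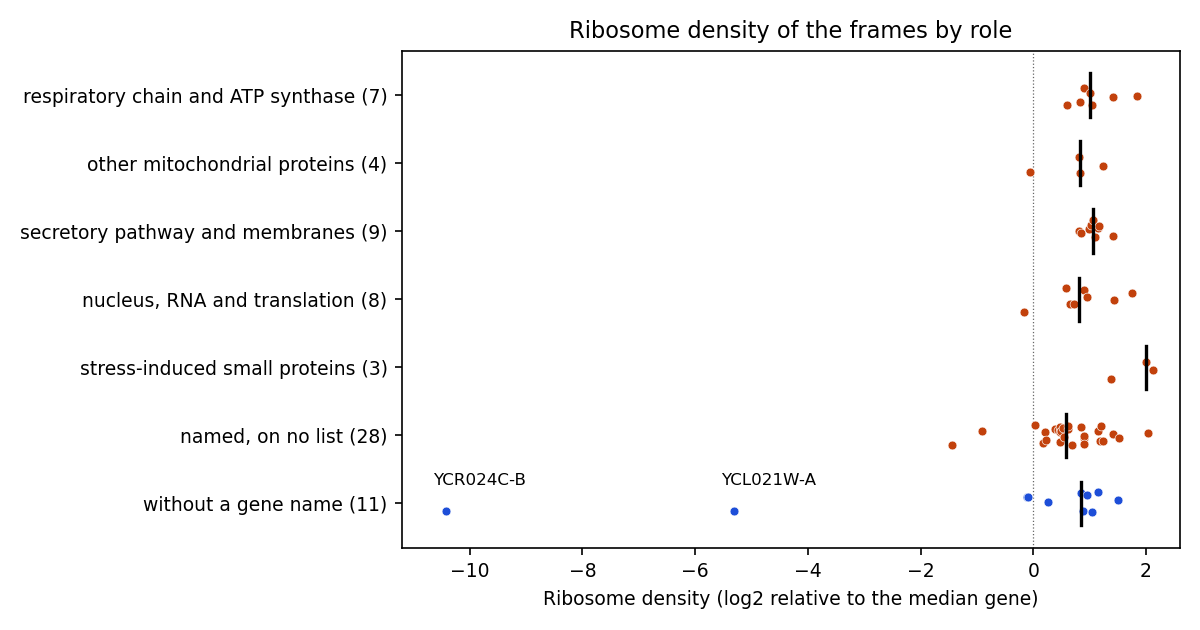
Ribosome density (log2 relative to the median gene, dotted line at 0) of the 70 frames by list, 1 point per frame with small vertical scatter, and a black bar at the median. The secretory and membrane list is narrow around 1.06, while the frames without a gene name reach down to -10.42 (YCR024C-B) and -5.31 (YCL021W-A).

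Of the 70 frames, 11 had no gene name beyond the systematic one, and they held both the most abundant frame and the lowest densities. Their median density was 0.85 with 3 called high (27.3%) and 2 called low (18.2%). It was 0.905 for the 59 named frames, with 23 high (39.0%) and 1 low (1.69%). Over all analysed genes 6.79% were high and 13.1% low. Under 300 nt, where 7 of the 11 lie, 58.8% of other genes were high. The 213 other analysed genes without a name had a median of -0.23, with 3.76% high and 18.8% low. None of these 213 is shorter than 318 nt.
YDR524C-B had 6746 RPKM of footprints and 2901 RPKM of RNA, a density of 1.502, and was 32nd in footprints and 60th in RNA among the 4685 listed genes. The annotation names the endoplasmic reticulum as its location and gives no function. YDL085C-A, a homologue of the human SERF1a and worm MOAG-4 proteins that modify aggregation, had 281 RPKM of footprints and 155 RPKM of RNA (1.15). YBR085C-A, seen in cytoplasm and nucleus, had 342 RPKM of footprints and 202 RPKM of RNA (1.05). These were the 3 unnamed frames called high.
YCR087C-A, annotated as binding zinc, had 156 RPKM of footprints and 97.8 RPKM of RNA (0.96). YKL068W-A, found by homology to another fungus, had 127 RPKM of footprints and 84.2 RPKM of RNA (0.88). YLR363W-A, a nuclear protein, had 102 RPKM of footprints and 69.2 RPKM of RNA (0.85). These 3 lay just under the limit for a high call. YPR170W-B, a putative component of the vacuolar ATPase, had 383 RPKM of footprints and 388 RPKM of RNA (0.27). YJR112W-A, placed in the endoplasmic reticulum, had 30.6 RPKM of footprints and 39.8 RPKM of RNA (-0.09). YKL033W-A, of the haloacid dehalogenase superfamily, had 169 RPKM of footprints and 222 RPKM of RNA (-0.11). The last 3 lay near the median gene, although their RNA ran from 39.8 to 388 RPKM.

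**Figure D3:**
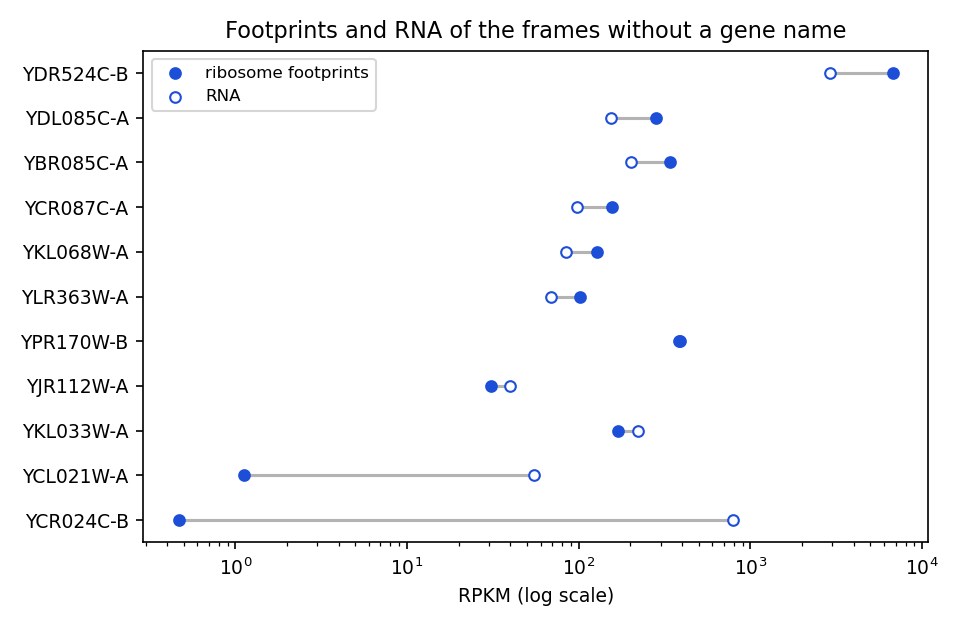
Footprints (filled) and RNA (open) of the 11 frames without a gene name, in RPKM on a log scale, ordered by density from the top. Footprints exceed RNA in the upper 6 frames, led by YDR524C-B with 6746 and 2901 RPKM, and are far below RNA in YCL021W-A and YCR024C-B.

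YCR024C-B had the lowest density of the 4642 analysed genes, -10.42, with 0.47 RPKM of footprints and 786 RPKM of RNA. Scaled to library size alone (RPKM times length in kilobases, or RPM), this is 0.125 RPM of footprints and 209.9 RPM of RNA. Its RNA ranked 146th among the 4685 listed genes. The frame has 267 nt, opens with ATG and is annotated as identified by expression profiling and mass spectrometry.
Its upstream neighbour on the same strand is PMP1, whose frame ends 79 bases before YCR024C-B begins. The RNA value of YCR024C-B lay between the 2004 RPKM of PMP1 and the 11.8 RPKM of SLM5, the next gene downstream on that strand, 376 bases away. Its footprint value lay below both, at 0.47 RPKM against 4581 RPKM for PMP1 and 7.76 RPKM for SLM5. Whether the RNA reads counted for YCR024C-B come from transcripts of PMP1 was not tested. Of the 70 frames, 9 have a coding gene on the same strand ending within 250 bases upstream, and 79 bases is the shortest such gap. The other 8, which include TIM11, ATP19 and MDM35, had densities from -0.09 to 1.84 with a median of 0.88. Upstream RNA was below that of the frame for TIM11 (13.95 RPKM), ATP19 (15.4), MDM35 (39.8) and YJR112W-A (33.4). It was above that of the frame for MOB2 (362 RPKM upstream, 32.5 in the frame) and SCS22 (159 and 29.25), as at YCR024C-B. Their gaps were longer, at 249 and 182 bases. For DID2 and EFG1 the upstream gene was not listed.

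**Figure D4:**
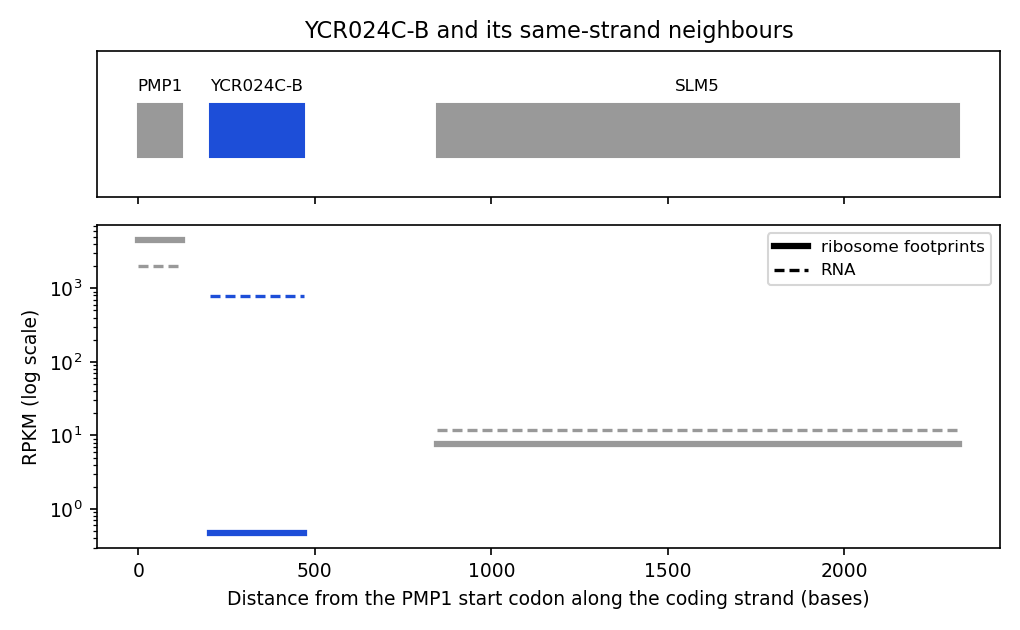
Upper panel, the coding frames of PMP1, YCR024C-B and SLM5 by distance from the PMP1 start codon in bases along the coding strand. Lower panel, RPKM on a log scale over each frame, with footprints as solid and RNA as dashed lines: YCR024C-B has 786 RPKM of RNA, between its neighbours, and 0.47 RPKM of footprints.

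YCL021W-A, whose protein the annotation places at the vacuole, had 1.13 RPKM of footprints and 54.6 RPKM of RNA, a density of -5.31, the 18th lowest of the analysed genes. This is 0.427 RPM of footprints and 20.6 RPM of RNA. The frame (chrIII:83620-83997, plus strand, 378 nt) lies apart from its neighbours. The nearest coding gene downstream is 1104 bases away, and the nearest upstream, KCC4, is 1344 bases away and had 8.42 RPKM of footprints and 23.6 RPKM of RNA. Both low unnamed frames had fewer footprints per RNA than any other of the 70 frames by a wide gap, since NVJ3 came next at -1.44. Only genes with more than 0 RPM of footprints were listed, so the presence of some footprints is not a separate result.

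Short length was the feature most of the frames had in common. Coding lengths ran from 132 nt for PMP2 to 1392 nt for NVJ3 with a median of 267 nt, against a median of 1308 nt over all analysed genes. Of the 70 frames 47 were under 300 nt, 14 were from 300 to 599 nt and 9 were longer. Short genes had higher density throughout the table, so the frames were set beside other genes of like length. Under 300 nt the median density was 0.95 for the 47 frames and 1.096 for the 68 other genes, among which are 18 of the 22 suffixed identifiers left out. From 300 to 599 nt it was 0.61 for 14 frames and 0.74 for 496 other genes. At 600 nt or more it was 0.50 for 9 frames and -0.13 for 4008 other genes, with median lengths of 864 and 1467 nt.
The frames in the shorter classes were thus slightly lower in median than other genes of their length. In the class under 300 nt the frames also had less RNA, with medians of 111 RPKM for the frames and 192 RPKM for the other genes, and a lower median codon adaptation, 0.218 beside 0.307. Their part in the difference was not tested.

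Density was also taken relative to the running median along coding length of all analysed genes, the frames included. The frames lay close to that median, in part because they enter it. Their median was 0.03, and 36 of 70 lay above 0. Under 300 nt the median was 0.02 for the 47 frames and 0.16 for the 68 other genes. Only NCW1 (1.13), SPO24 (1.13) and DPI8 (1.07), 3 frames or 4.29%, remained more than 2-fold above the running median. Over all analysed genes the share was 1.98%. The 5 frames (7.14%) more than 2-fold below were YCR024C-B (-11.3), YCL021W-A (-6.15), MCO6 (-1.91), NVJ3 (-1.37) and MHF1 (-1.07), against 9.24% of all analysed genes. MCO6 and MHF1 are short frames that were within 2-fold of the median gene as measured. For the shortest frames the running window is one-sided and holds mostly longer genes. The 22 suffixed identifiers left out by the rule had a median density of 1.20 as measured and 0.28 on the length-adjusted scale, with 14 high and none low as measured and 2 high and none low on the length-adjusted scale.

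**Figure D5:**
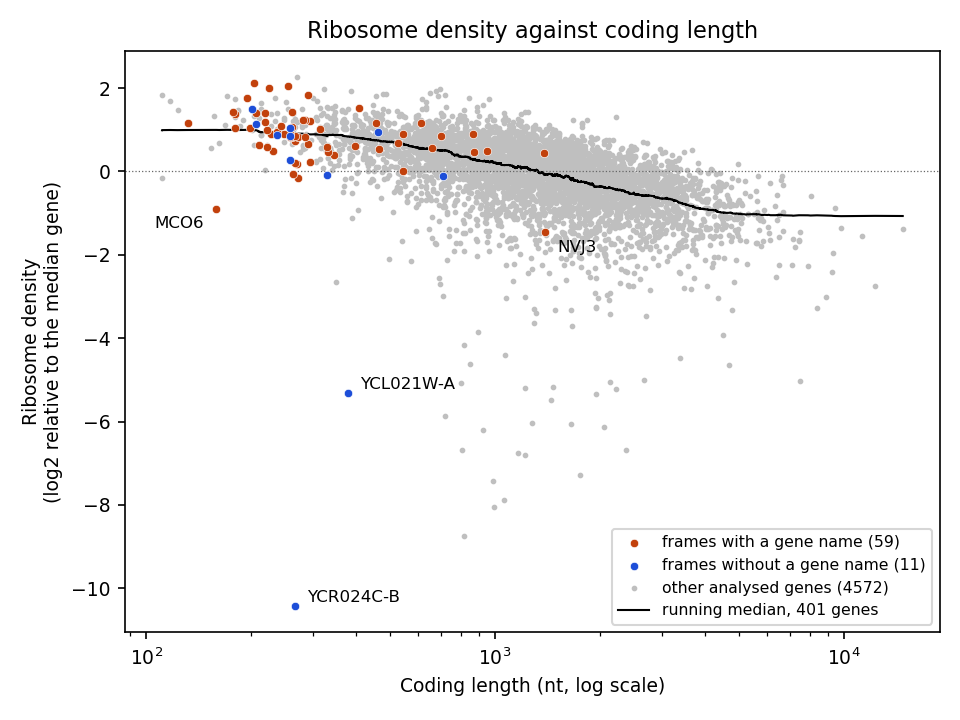
Ribosome density (log2 relative to the median gene) against coding length (nt, log scale), with frames in colour, other analysed genes in grey and the running median along length as a black line. Frames crowd at the short end close to the line, and YCR024C-B, YCL021W-A, MCO6 and NVJ3 fall below it.

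Among the frames, density went with length and codon use in the direction seen over all genes. Between density and coding length the Spearman rho was -0.43 over the 70 frames and -0.62 over all analysed genes. With codon adaptation it was 0.44 and 0.38, and with RNA 0.37 and 0.53. These describe genes of the same pair of libraries that also share length and base composition. The frames used the favoured codon, marked in capitals in the sequences above, at a median of 41.0% of codons, against 38.6% over all analysed genes. It was 64.6% in YDR524C-B and 65.0% in PMP2, the most abundant frames, and 36.5% in YCR024C-B. The top densities were found at intermediate shares, 48.5% in SPO24, 50.6% in NCW1 and 45.8% in DPI8. MCO6, which was low for its length, was near them at 43.1%.

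All 70 frames open with ATG, and 43 (61.4%) have an A 3 bases before it, a base favoured at yeast start sites, equal to the 61.4% of all analysed genes. Under 300 nt the A was present in 28 of 47 frames (59.6%) and in 49 of 68 other genes (72.1%). Frames with that A had a median density of 0.905 and those without it 0.83, against 0.11 and -0.19 over all analysed genes. It was present in 10 of 11 unnamed frames, YCR024C-B among them and YCL021W-A the exception, and in 33 of 59 named frames.

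A strongly hydrophobic stretch, as membrane-spanning segments have, was about as common in the frames as in all genes, which are mostly longer. In the 2 shorter length classes it was more common in the frames than in other genes. A window of 19 residues with a mean Kyte-Doolittle hydropathy of at least 1.6 was found in 23 of 70 frames (32.9%), against 29.6% of all analysed genes. Under 300 nt it was 18 of 47 frames (38.3%) and 13 of 68 other genes (19.1%). From 300 to 599 nt it was 28.6% of 14 frames and 17.7% of 496 other genes. At 600 nt or more it was 11.1% of 9 frames and 31.1% of 4008 other genes. On the secretory and membrane list 8 of 9 frames had it, DID2 being the exception. Median densities of the frames were 0.99 with the stretch and 0.85 without it, and those of the other genes under 300 nt were 1.09 and 1.102. Between density and the highest window hydropathy the Spearman rho was -0.06 over the frames and -0.32 over all analysed genes. YCR024C-B and YCL021W-A both have the stretch.

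Introns were common in the frames. An intron interrupts 16 of 70 coding sequences (22.9%), against 3.68% of all analysed genes. The shares depended on length, with 17.0% of frames and 23.5% of other genes under 300 nt, and 42.9% of frames and 11.7% of other genes from 300 to 599 nt. Among the frames with introns were SUS1, VMA9 and YOS1, and their median density was 0.71, with 0.91 for the 54 frames without. Over all analysed genes it was 0.62 with an intron and -0.03 without. The frames with introns were also longer, with a median of 312 nt, against 262.5 nt for those without. On the length-adjusted scale their medians were -0.05 and 0.03. RPKM depends on the gene length used, and whether the authors left introns out of it is not given in the sources used here. Among coding frames in the RefSeq annotation, only KTI11 and DPC13 overlap another, on the opposite strand by 4 and 62 bases. The note for YPR170W-B also names a partial overlap with dubious genes, which are not among those coding frames. Whether reads were counted by strand is not given either.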

How the data were processed

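RNA and ribosome footprints of BY4741 cells were each measured in 1 library. The deposited table gives RPKM per gene, computed by the authors, and a log2 column of footprints over RNA, also deposited, which equalled the ratio of the columns within 1.63e-09. Per the file headers, genes had at least 10 RPM of RNA and more than 0 RPM of footprints. Genome build sacCer3 is named by the submitters' processing notes. The aligner is not given in the sources used here, and neither are the counting rule and the depth, so no counting interval is given. RPKM values are rounded to 2 decimals by the authors.

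All 4685 identifiers matched the RefSeq annotation of R64. Density used no pseudocount, a minimum mean of 5 RPKM over both values, and centring on the median gene. Length adjustment used a running median over 401 genes. Codon weights came from 55 ribosomal protein genes with 0.5 added per codon. Copies were sought with BLAST 2.17.0, and calculations used Python 3.11.15, pandas 2.3.3 and numpy 2.4.6. The scripts were tested on simulated data. Alternatives were no filter, a mean RPKM of at least 20, a pseudocount of 0.5, centring on totals, length adjustment, and leaving out overlapping frames.

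The members, lists and tests were chosen with earlier results of these data known. All 70 frames are named. The planned rule named the 10 highest and 10 lowest in density, the 5 highest in footprints and RNA, the extremes of each list, all members of lists with 6 or fewer, and the 5 highest and lowest unnamed frames. The other frames, and the role groups of the 28 named frames on no list, were added after their values were seen.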

Additional observations from a re-analysis of the deposited data

How the results depend on the processing

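No paired analysis was possible because each assay has 1 library. The low-value filter was dropped, a pseudocount of 0.5 RPKM was added, or KTI11 and DPC13 were left out. In each case the counts were 25 or 26 high and 3 low, and no median moved by 0.05 or more. A mean RPKM of at least 20 moved the centre up by 0.183 and kept 68 frames. There were then 16 high frames, with medians of 0.708 (all), 0.723 (named) and 0.663 (unnamed). Centring on total footprints over total RNA moved the centre up by 0.377 and gave 12 high and 4 low frames and medians of 0.487, 0.527 and 0.469. Adjusting for coding length gave 3 high and 5 low frames and medians of 0.0278, 0.0376 and -0.0629, so the unnamed median changed sign. A narrower running window, added after seeing the data, gave 2 high and 6 low frames and medians of -0.0773, -0.0737 and -0.174, so each median changed sign. DPI8, at 0.93, was then no longer high, and MIM2 lay just past the line for low. The higher median of the frames against all genes therefore depends on leaving length unadjusted, while YCR024C-B and YCL021W-A stayed the lowest of the frames on each length-adjusted scale. With 1 library per assay and unknown depth, footprint values near 1 RPKM or less are the least certain.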
